A study of Mus musculus with 14 samples.

Results

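Hepatokines are proteins that the liver secretes into the blood and that act on other organs. The set described here held 7 mouse genes, Fgf21, Gdf15, Fgl1, Ahsg, Fetub, Lect2 and Inhbe, chosen by name from the table of hepatic gene expression, and all 7 were found among its 17552 genes. Liver RNA came from male Apoe-deficient mice, which lack apolipoprotein E, of strain C57BL/6 in the labels and C57BL/6J in the methods of the study. The labels give an age of 8 weeks, which is read here as the age before the diets, since livers were taken after feeding. All mice were fed a Western diet rich in fat and cholesterol. The control group received this diet alone, and the erythrodiol group received it with 10 mg/kg of erythrodiol, a triterpene of the olive. The labels of the samples give 8 weeks on the diets, while the methods of the study give a longer time. Each group had 7 libraries, each made from RNA pooled from a few mice, so that no library represents a single animal. Gene expression was deposited as a sum over the 7 libraries of a group, an expected count that is not normalised. Each gene therefore had 1 value per group and no replicates, and the differences described below compare 2 sums without a test of the effect of the diet.

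FGF21 is a hormone that acts through FGF receptors and the co-receptor beta-Klotho, and the liver produces it in fasting, on low-protein diets and in cell stress. GDF15 signals through GFRAL in the hindbrain and reduces food intake. FGL1, a fibrinogen-like protein, is a ligand of the T cell receptor LAG3. AHSG (fetuin-A) and FETUB (fetuin-B) are abundant plasma proteins of the cystatin superfamily, AHSG being known as an inhibitor of mineral deposition and of the insulin receptor. LECT2 is a chemotactic plasma protein, and INHBE is the subunit of activin E, a hormone of the TGF-beta family that acts on fat tissue.

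The group sums were 122889032 counts in control and 124686047 counts with erythrodiol. Control libraries held from 34856340 to 55244294 clean reads, of which 64.3% to 81.4% mapped to genes, and erythrodiol libraries from 47669656 to 48058606, of which 73.0% to 76.1% mapped. A single library gave between 9.12% and 17.3% of the control sum and between 13.9% and 14.6% of the erythrodiol sum. Control replicate 3 had the lowest mapping rate and stood apart from its group, and its counts could not be taken out of the sums, so no value below is given without it. Apoe had 9403 counts in control and 8293 with erythrodiol. The study reported no Apoe product by RT-PCR in livers of such mice. Counts per gene do not show which part of the gene the reads cover. All 8 hepatocyte markers, among them Alb and Ttr, were present and together took 125879 CPM (counts scaled to a common group total) in control and 128450 with erythrodiol.

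The 7 genes covered a wide range of levels. Expressed as CPM per kilobase of gene length, Ahsg stood at 4267 in control and 5057 with erythrodiol, as the 17th and the 14th most expressed gene of the liver. Fgl1 (409 and 201), Fetub (273 and 363) and Lect2 (156 and 119) formed a middle range on the same scale. Inhbe (28.4 and 33.0), Fgf21 (10.4 and 22.8) and Gdf15 (7.99 and 10.7) were the lowest. The order from Ahsg to Gdf15 was the same in both groups, except that Fgl1 was above Fetub in control and below it with erythrodiol. Neighbours in this order had 95% counting intervals that did not overlap within either group, although these intervals cover counting error only and not the variation between pools. The 7 genes together took 0.760% of all counts in control and 0.870% with erythrodiol, of which Ahsg alone took 0.650% and 0.771%. All 7 had sums that were exactly whole as deposited in both groups, as did 79.5% of the genes tested, although fractions can cancel in a sum over 7 libraries.

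**Figure D1:**
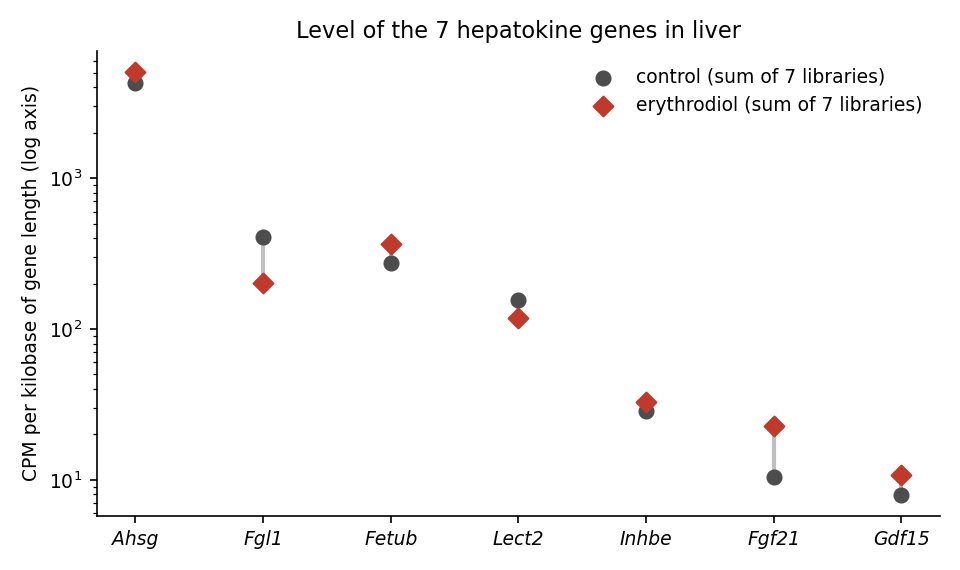
Level of each hepatokine gene in CPM per kilobase of gene length (log axis), with a circle for the control sum of 7 libraries and a diamond for the erythrodiol sum. Fgl1 lies at 409 and 201 and Fgf21 at 10.4 and 22.8, whereas the other 5 genes have circle and diamond close together.

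With each group scaled by its total count, Fgf21 was 2.20-fold higher and Fgl1 2.04-fold lower with erythrodiol. Gdf15, Fetub, Ahsg and Inhbe were higher by 34.0%, 32.9%, 18.5% and 16.1%, respectively, and Lect2 was 1.31-fold lower. All 7 genes passed the minimum of 100 counts in both groups together, as did 13291 of the genes in the table. At 1.5-fold, 1 of the 7 was past the limit upwards, beside 2.55% of all genes tested, and 1 downwards, beside 3.14%. At 2-fold it was the same 2 genes, Fgf21 upwards beside 0.218% of genes and Fgl1 downwards beside 0.549%. The median log2 ratio of erythrodiol to control was 0.25 over the 7 genes and 0.16 over all genes tested, whose middle 50% went from -0.04 to 0.32. Ahsg and Inhbe lay inside that range. Each of the 7 genes kept the direction of its difference under the other 4 ways of scaling the groups. With TMM factors, which centre the bulk of genes near no change, Fgf21 was 1.97-fold higher and Fgl1 2.27-fold lower, and these were the only 2 of the 7 past 1.5-fold, beside 0.91% of all genes upwards and 6.08% downwards. TMM lowered the log2 ratio of all genes by 0.16, and 13% of the genes past 1.5-fold were then higher with erythrodiol, compared with 44.8% when scaled by totals.

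**Figure D2:**
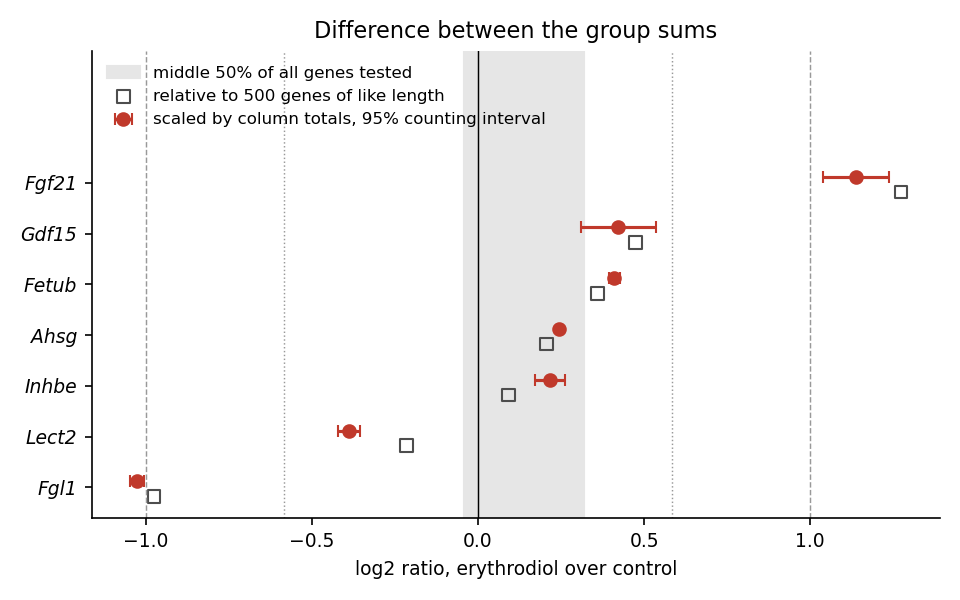
Log2 ratio of erythrodiol to control for each hepatokine gene, as a filled circle with its 95% counting interval when scaled by column totals and as an open square relative to 500 genes of like length, with dotted lines at 1.5-fold and dashed lines at 2-fold. Fgf21 (1.14) and Fgl1 (-1.03) lie at opposite ends, while Ahsg and Inhbe lie within the grey band of the middle 50% of all genes tested (-0.04 to 0.32).

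The log2 ratio moved with gene length over the whole table. Its median was -0.18 in the shortest of 10 length classes, 333 to 1211 bases, and 0.33 in the longest, 6116 to 26655 bases. Fgf21 (947 bases), Gdf15 (1112), Fgl1 (1113) and Lect2 (890) belong to the shortest class. For this reason each gene was also set against the 500 genes nearest to it in length. Relative to their median, the log2 ratio was 1.27 for Fgf21, 0.47 for Gdf15, 0.36 for Fetub, 0.21 for Ahsg, 0.09 for Inhbe, -0.21 for Lect2 and -0.97 for Fgl1. In 5 of the 7 genes the value lay outside the middle 50% of genes of like length. The exceptions were Lect2 and Inhbe. Relative to genes of like length, 1 of the 7 was past 1.5-fold upwards, beside 1.02% of all genes, and 1 downwards, beside 3.53%.

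**Figure D3:**
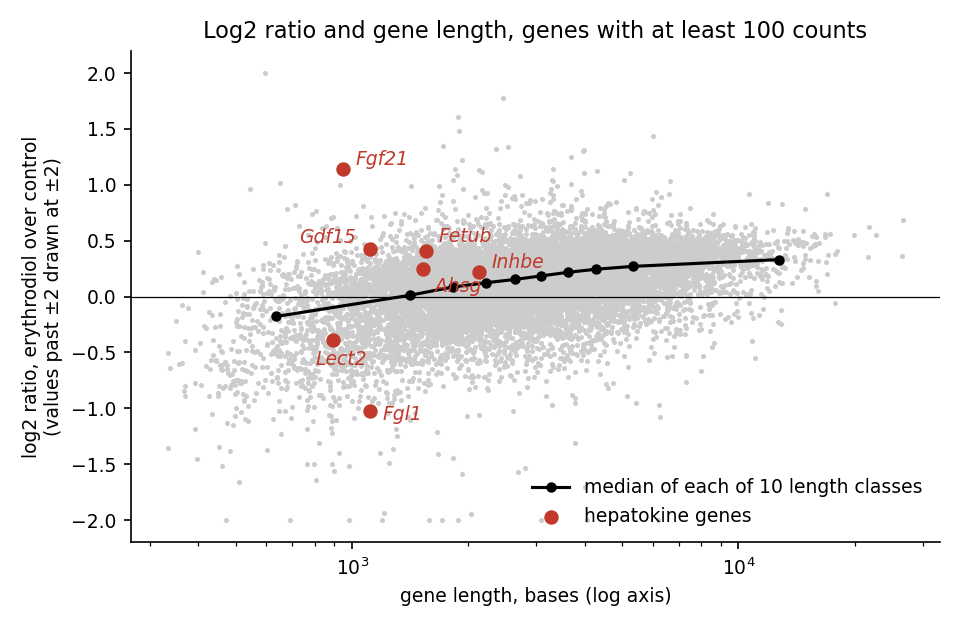
Log2 ratio of erythrodiol to control against gene length in bases (log axis) for the 13291 genes with at least 100 counts (grey, values past 2 drawn at the edge in either direction), with the median of each of 10 length classes (black line) and the 7 hepatokine genes (red). The medians go from -0.18 to 0.33 with length, and Fgf21 and Fgl1 lie far above and below the line among genes of about the same length.

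The gene of FGF21 occupies bases 45613890 to 45615490 of chromosome 7 (GRCm38, as for all positions given here). Fgf21 had 1207 counts in control and 2695 with erythrodiol. The ratio was 2.20 with a 95% counting interval of 2.06 to 2.36, and 0.105% of all genes tested had a higher one. None of the 500 genes of like length, 836 to 1075 bases, had a higher ratio. In level it went from position 4122 to position 2387 among the genes of the table. If 6 of the erythrodiol libraries had been at the control level, the remaining library would have needed 9.20 to 9.61 times that level to give this sum, depending on which it was, and the files do not tell how the counts were shared among the libraries. The gene next to it, Fut1, a fucosyltransferase that begins 2115 bases further on, was also higher, with 42 counts in control and 146 with erythrodiol, 3.43-fold (counting interval, 2.42 to 4.95). Bcat2, the mitochondrial branched-chain aminotransferase on its other side, had 2947 and 3992 counts and a log2 ratio of 0.42. Fgf21 is also made by the exocrine pancreas, so 16 acinar markers were examined. All 16 had at least 1 count in each group, 13 of them had under 100 counts in both groups together, and their sum was 15.5 CPM in control and 11.2 with erythrodiol. Most of it came from the elastase Cela1, with 1574 and 1113 counts, and the amylase Amy2a5 had 124 and 22.5. Other digestive enzymes were low in both groups, some lower with erythrodiol, as Prss2 (15 and 8 counts), and some higher, as Ctrb1 (8 and 42) and Cpa1 (2 and 15). Without Cela1 and Amy2a5, a choice made after their values were seen, the other 14 summed to 208 counts in control and 257 with erythrodiol, and the part of pancreatic RNA in the difference of Fgf21 was not tested. Of 7 striated muscle markers found, only Des, which stellate cells also express, had at least 100 counts, and Ckm, muscle creatine kinase, had 3 and 0.

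The region around the start of Fgf21 is shown because it held a motif of ATF4 type, and other target genes of ATF4 are described next. That of Inhbe is shown because, of the other 5 genes with a listed promoter, it alone held the same ATF4-type motif. No promoter was listed for Fgl1, which was not searched. Each sequence runs 5′ to 3′ on the strand of the gene, from 250 bases before to 50 bases after the start, and was taken from RefSeq on GRCm38.p6. Capitals mark the motifs TGATGNAAN (ATF4 type), TATAAA and CACGTG, searched on both strands.
Fgf21, chr7:45615441-45615740, minus strand: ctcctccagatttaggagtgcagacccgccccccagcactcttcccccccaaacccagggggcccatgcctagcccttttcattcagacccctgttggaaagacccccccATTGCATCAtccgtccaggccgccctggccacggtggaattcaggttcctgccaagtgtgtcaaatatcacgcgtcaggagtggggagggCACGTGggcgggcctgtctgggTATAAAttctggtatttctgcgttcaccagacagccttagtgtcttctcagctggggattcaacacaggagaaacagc
Inhbe, chr10:127351799-127352098, minus strand: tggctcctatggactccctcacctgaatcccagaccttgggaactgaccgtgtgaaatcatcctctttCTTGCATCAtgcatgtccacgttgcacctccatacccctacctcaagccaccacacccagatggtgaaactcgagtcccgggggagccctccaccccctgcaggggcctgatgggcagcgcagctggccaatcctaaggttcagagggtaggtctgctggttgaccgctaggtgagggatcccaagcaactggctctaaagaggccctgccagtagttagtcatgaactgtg

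In Fgf21 the match to TGATGNAAN was on the opposite strand from -140 to -132 relative to the start, CACGTG from -50 to -45 and TATAAA from -28 to -23. In Inhbe the match to TGATGNAAN was also on the opposite strand, from -182 to -174. Promoters were listed for 6 of the 7 genes, with a second start each for Gdf15 and Fetub. TGATGNAAN was found in 2 of these 8 promoters and in 3.95% of all 32851 promoters of the same length, CACGTG in 2 of 8 (Fgf21 and Gdf15) beside 7.15%, and TATAAA in 2 of 8 (Fgf21 and Fetub) beside 13.6%. The longer DR1 motif, a direct repeat bound by PPAR and HNF4, and the HNF1 motif, a palindrome, were searched in their full consensus form and were found in 0 of the 8 promoters and each in 0.0396% of all promoters. A match is a string of letters and not evidence of binding.

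Genes of the integrated stress response, which the factor ATF4 switches on when amino acids are short or protein folding is disturbed, were examined as 18 targets beside Fgf21 and Gdf15. All 18 had at least 100 counts. Of them, 4 were past 1.5-fold upwards with erythrodiol and 0 downwards, beside the background shares of 2.55% and 3.14% given above, and their median log2 ratio was 0.30, compared with 0.16 over all genes. The 4 genes encode enzymes of serine, asparagine and folate metabolism. Phgdh, the entry enzyme of serine synthesis, had 271 counts in control and 586 with erythrodiol, a log2 ratio of 1.09. Psat1, which acts next in that pathway, had 518 and 1019 counts and a log2 ratio of 0.96. Asns, asparagine synthetase, had 1134 and 2243 counts and the same log2 ratio of 0.96. Mthfd2, a mitochondrial folate enzyme, had 346 and 566 counts (log2 ratio, 0.69), and was below the 1.5-fold limit with TMM factors and relative to genes of like length. Better known markers of cell stress had smaller log2 ratios, 0.26 for Ddit3, 0.17 for Trib3, 0.37 for Chac1 and 0.36 for Atf4 itself. The 5 genes below 0 were Atf3, Vldlr, Slc7a11, Cth and Nupr1, at -0.20, -0.25, -0.41, -0.39 and -0.04. Relative to genes of like length Slc7a11, the cystine transporter, was past 1.5-fold downwards. Of the 17 stress genes with a listed promoter, 7 held TGATGNAAN at any listed start. The share of all single promoters was 3.95%, which is not counted per gene. Asns was the only one of these 7 among the 4 genes past 1.5-fold.

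Fgf21 is also a target of PPARalpha, the nuclear receptor that drives fatty acid oxidation in fasting. None of 17 genes of that list was past 1.5-fold in either direction, beside 2.55% of all genes upwards and 3.14% downwards. Their median log2 ratio was 0.12, near that of all genes. Ppara itself had 34011 counts in control and 49275 with erythrodiol (log2 ratio, 0.51, and 0.19 relative to genes of like length). Cpt1a, which admits fatty acids into mitochondria, was at 0.43 and Pdk4 at 0.04. Plin2, a lipid droplet coat protein, was at -0.32 and Fabp1, the liver fatty acid binding protein, at -0.40. Relative to genes of like length, Cpt1a, Pdk4, Plin2 and Fabp1 were at 0.18, -0.18, -0.43 and -0.06. With TMM factors 8 of the 17 were above 0 and 9 below, and the median of all genes tested was 0.005. Of 8 genes of the sugar-responsive ChREBP and the LXR pathways, 1 was past 1.5-fold upwards and 0 downwards, beside 2.55% and 3.14% of all genes. This was Mlxipl, the gene of ChREBP, with 39373 counts in control and 60749 with erythrodiol (log2 ratio, 0.60), which was below the limit with TMM factors and relative to genes of like length.

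Receptors of FGF21 had modest differences. Klb, the gene of beta-Klotho, had 2961 counts in control and 4248 with erythrodiol, a log2 ratio of 0.50, and 0.29 relative to genes of like length. Fgfr4, the main FGF receptor of hepatocytes, had 4000 and 5540 counts (log2 ratios, 0.45 and 0.29 by these scales), and Fgfr1, through which FGF21 acts in fat, had 1054 and 1246 counts (0.22 and -0.02). None of the 6 genes of FGF21 and GDF15 reception with at least 100 counts was past 1.5-fold, beside 2.55% of all genes upwards and 3.14% downwards. The receptor of GDF15 was practically absent from liver, with 0 counts of Gfral in control, which allows up to 3, and 1 with erythrodiol, and its co-receptor Ret had 5 and 7 counts.

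Gdf15, on chromosome 8 from 70629393 to 70632470, was the least expressed of the 7 genes, with 1092 counts in control and 1485 with erythrodiol. The ratio was 1.34 (counting interval, 1.24 to 1.45), and 11.2% of all genes tested had a higher one. Among genes of like length, 3.6% had a higher ratio. Its level was 1.30 times below that of Fgf21 in control and 2.13 times below it with erythrodiol. The genes on either side, Lrrc25 and Pgpep1, had log2 ratios of -0.13 and -0.06.

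Fgl1, on chromosome 8 from 41191434 to 41217978, had 55990 counts in control and 27899 with erythrodiol. Its log2 ratio was -1.03 (counting interval, -1.05 to -1.01), and 0.519% of all genes tested had a lower one. Relative to genes of like length it was 1.97-fold lower, just short of the 2-fold limit, and 0.8% of them had a lower ratio. If 6 control libraries had been at the erythrodiol level, the remaining library would have needed between 7.00 and 12.4 times that level. Scaled by totals, its neighbours Mtus1 and Pcm1 differed in the other direction, with log2 ratios of 0.61 and 0.29. Relative to genes of like length they were at 0.34 and -0.05. Its receptor gene Lag3, of T cells, had 79 and 93 counts.

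Fgl1 is an acute phase gene that interleukin 6 induces through STAT3. The 14 genes examined here were of that response, of its signalling or related to Fgl1. Of these, 5 were past 1.5-fold downwards with erythrodiol, beside 3.14% of all genes, and 0 upwards, with a median log2 ratio of -0.38. The serum amyloids Saa1 and Saa2 had 52221 and 25386 counts in control and 22566 and 12039 with erythrodiol, log2 ratios of -1.23 and -1.10. The orosomucoids Orm1 and Orm2 were at -0.70 and -0.84, and Fgl2, the other fibrinogen-like gene, at -0.67. Scaled by totals, Hp, Lcn2 and Crp of the same list were at -0.43, -0.45 and -0.22, short of 1.5-fold. Saa1 with Saa2, and Orm1 with Orm2, are near copies of each other that can share reads. Fibrinogen chains, relatives of Fgl1 and far more abundant, differed little, with log2 ratios of 0.16 for Fga, -0.17 for Fgb and -0.24 for Fgg. The genes of the interleukin 6 receptor and of the transducing factor were higher when scaled by totals, Il6ra at 0.53 and Stat3 at 0.37. Socs3, which STAT3 induces, was at -0.33. The values of Il6ra, Stat3 and Socs3 relative to genes of like length were 0.33, 0.12 and -0.48. Relative to genes of like length 4 of the 14 were past 1.5-fold downwards, Orm1 no longer being among them, beside 3.53% of all genes by that scale. With TMM factors 7 were, beside 6.08% of all genes.

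Markers of Kupffer cells, the resident macrophages of liver, were lower as well, 4 of 6 past 1.5-fold beside 3.14% of all genes, and their summed level was 869 CPM in control and 555 with erythrodiol. Clec4f had 19293 counts in control and 12507 with erythrodiol (log2 ratio, -0.65), and Marco 6374 and 3086 (-1.07). Cd5l and Vsig4 were at -0.70 and -0.59 and Timd4 at -0.48, whereas Cd68, a marker of all macrophages, had 5773 and 6006 counts. In liver tissue fewer cells of a type and less RNA per cell cannot be told apart, and the part of these cells in the difference of Fgl1 was not tested. Markers of sinusoidal endothelium and of stellate cells had median log2 ratios of -0.06 and 0.00, and of -0.17 and -0.16 relative to genes of like length. Lymphocyte markers had a median of 0.15, but their summed level was 29.9 CPM in control and 25.7 with erythrodiol. Most of these counts were of Ptprc, at -0.27, and the other lymphocyte markers were above 0 with counting intervals that included 0. Bile duct markers had a median of -0.42, with 4 of 4 below 0, whereas 71.2% of all genes tested were above 0. Krt19 was at -0.89, and the counting intervals of Krt7 and Sox9 included 0.

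New coding transcripts assembled from all libraries together were listed for 2 of the 7 genes, Fgl1 and Fetub, with 1 transcript each, beside 35.8% of all genes tested. That of Fgl1 had 7 exons, of which 6 had the same ends as an exon of the GENCODE annotation. Its first exon, from 41217814 to 41217978 on the minus strand, began at the outer end of the gene in RefSeq. This exon lay 2657 bases ahead of the first exon of the annotated transcript that comes first by name, of 2. The new transcript lacked exon 7 of that annotated transcript, of 188 bases, from 41196958 to 41197145. The new transcript of Fetub had 8 exons, of which 4 had the same ends as an annotated exon. It was compared with the first by name of the 7 annotated transcripts. The end of exon 2 and the start of exon 3 were shifted by 4 bases, and the outer ends lay further out. Both outer ends were within the span of the gene in RefSeq. The counts of both groups are per gene, so these transcripts have no value of their own here. None of the 16 splicing events that the authors kept as differing between the groups was in a hepatokine gene. With so few events beside 17552 genes, this says little about any set of 7 genes.

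Ahsg and Fetub lie side by side on chromosome 16, Ahsg from 22892015 to 22899451 and Fetub from 22918382 to 22939768. Ahsg had 799053 counts in control and 961016 with erythrodiol, or 1.19-fold (counting interval, 1.18 to 1.19), and Fetub 52034 and 70145 counts, or 1.33-fold (1.31 to 1.34). For Ahsg 36.7% of all genes tested had a higher ratio, and for Fetub 12.5%. The level of Ahsg was 15.6 times that of Fetub in control and 13.9 times with erythrodiol. Hrg, the histidine-rich glycoprotein gene that follows Fetub on the chromosome and belongs to the same superfamily, had 107526 and 142398 counts, a log2 ratio of 0.38 beside 0.25 for Ahsg and 0.41 for Fetub. Dnajb11, a chaperone gene on the other side of Ahsg, was at 0.23. The kininogen genes of that superfamily had the opposite sign, Kng1 at -0.11 and Kng2 at -0.23, and the small intracellular or secreted cystatins Cstb and Cst3 were at -0.19 and -0.42. None of the 5 other genes of the superfamily with at least 100 counts was past 1.5-fold, beside 2.55% of all genes upwards and 3.14% downwards. The insulin receptor gene Insr had 14765 counts in control and 20027 with erythrodiol, a log2 ratio of 0.42, and of 0.07 relative to genes of like length, since it is a long gene.

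Lect2, on chromosome 13 from 56529734 to 56548559, had 17024 counts in control and 13192 with erythrodiol. The log2 ratio was -0.39 (counting interval, -0.42 to -0.36), and 6.98% of all genes tested had a lower one. Among genes of like length, which had a median of -0.17, 32.6% had a lower ratio, so that Lect2 lay inside their middle 50%. Its span overlaps that of Fbxl21, which had 604 and 732 counts, and reads from shared bases cannot be told apart where the library does not mark the strand. The next gene, Tgfbi, was at 0.17. Receptors proposed for LECT2 had log2 ratios of 0.26 for Met, 0.24 for Tie1 and 0.20 for Cd209a, the last with 98 and 114 counts, and relative to genes of like length of -0.04, 0.01 and 0.16.

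Inhbe, on chromosome 10 from 127349402 to 127351848, had 7461 counts in control and 8792 with erythrodiol, a ratio of 1.16 (counting interval, 1.13 to 1.20). Of all genes tested 41.8% had a higher ratio, and of genes of like length 35.4%. Inhbc, the activin C subunit gene that begins 4473 bases beyond it, had 7789 and 10107 counts and a log2 ratio of 0.35, or 0.25 relative to genes of like length. On its other side Gli1 had 24 counts in each group. Among the other subunits, Inhba had 712 and 946 counts (log2 ratio, 0.39) and Inhbb 241 and 218 (-0.17). Fst and Fstl3, which encode the activin antagonists follistatin and follistatin-like 3, had log2 ratios of 0.49 and 0.67, Fstl3 with only 45.8 and 74 counts. Fstl3 was the only gene among the 10 of this list with at least 100 counts to be past 1.5-fold, upwards beside 2.55% of all genes, and it was not past it with TMM factors or relative to genes of like length. By the latter scale Bambi, a decoy receptor of the family with 614 and 500 counts, was past 1.5-fold downwards. Acvr1c, the receptor of activin E in fat, had 22 and 28 counts in liver, and Acvr2b, a type II receptor, 1010 and 1453 (log2 ratio, 0.50).

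Of 23 other secreted liver factors, 1 was past 1.5-fold upwards and 1 downwards, beside 2.55% and 3.14% of all genes. With TMM factors 0 were past it upwards and 3 downwards, and relative to genes of like length 0 and 2, the latter Apcs and Serpina12. Tsku, tsukushi, had 8063 counts in control and 12812 with erythrodiol (log2 ratio, 0.65), and was below the limit with TMM factors and relative to genes of like length. Apcs, serum amyloid P and another acute phase protein of the mouse, had 22167 and 10566 counts (-1.09). Igfbp1, an IGF binding protein that stress and fasting raise, was at 0.45, Rbp4 at 0.28, Selenop at 0.23, Angptl8 at -0.30, Enho at -0.51 and Serpina12 at -0.48. The median log2 ratio of the 23 factors was 0.10. Scaled by totals, 17 of them were above 0 and 6 below, beside 71.2% of all genes tested above 0. With TMM factors, which lower every log2 ratio, 9 were above 0 and 14 below, and the median of all genes tested was 0.005.

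**Figure D4:**
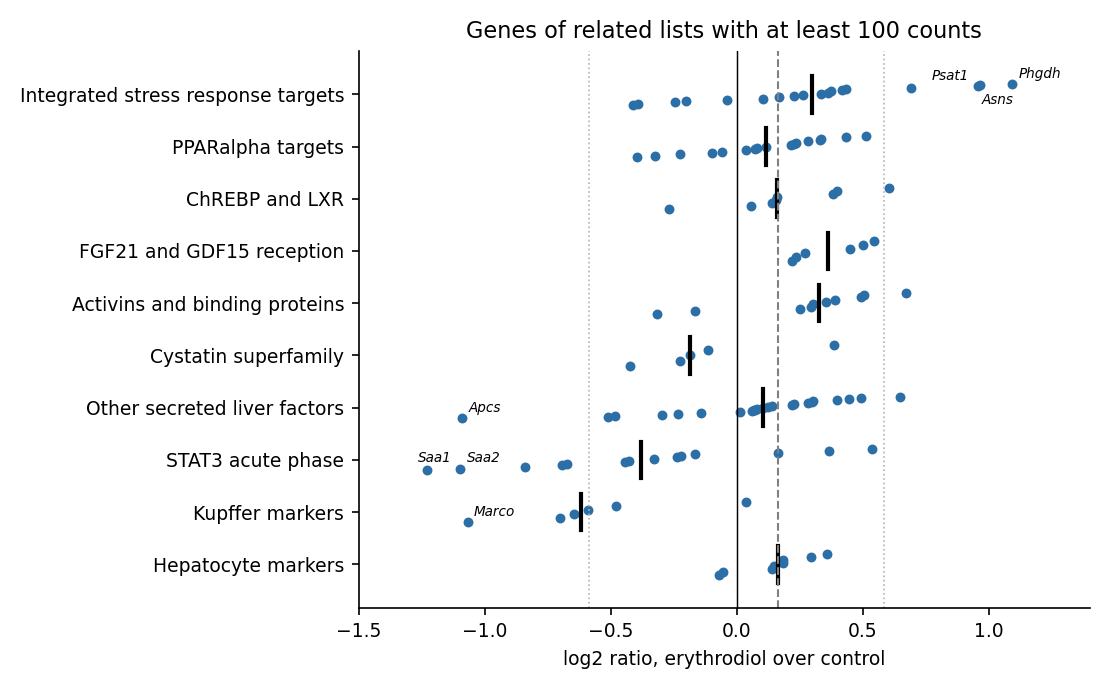
Log2 ratio of erythrodiol to control for single genes (points) of lists related to the hepatokines, each with its median (black bar), when scaled by column totals, with dotted lines at 1.5-fold and a dashed line at the median of all genes tested (0.16). Asns, Psat1 and Phgdh stand to the right among stress response targets, Saa1, Saa2, Apcs and Marco to the left in their lists, and the genes of the PPARalpha list stay between the dotted lines.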

How the data were processed

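Liver RNA of 14 libraries, 7 per group, was read from both ends by the authors on a BGISEQ-500 instrument. Per the labels and the methods of the study, clean reads were mapped with Bowtie2 to reference and newly assembled coding transcripts and counted with RSEM, and new transcripts came from HISAT, StringTie and Cufflinks. Versions are not given in the sources used here. The authors deposited an expected count per gene as a sum over the 7 libraries of each group, with the gene length. They also deposited the count of clean reads and the percent mapped to genes for each library. The log2 ratios, p-values and calls in the same table were not used.

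Log2 ratios were computed from the group sums divided by the column totals. Genes with at least 100 counts in both groups together entered all shares and medians. The 95% counting intervals are exact (Clopper-Pearson for ratios, Poisson for levels), were computed on rounded counts and cover counting error only. PCR reads are not independent molecules. Genes of like length are the 500 nearest in length. Limits were 1.5-fold and 2-fold. No test across samples could be made for genes. The 7 members and all lists were chosen with earlier results of these data known. Genes named are the members, their receptors and chromosomal neighbours, listed genes past 1.5-fold, and Apoe. Other genes of the lists were named after their values were seen. A protein comparison that had been planned was not made. The computation was tested on simulated data, where 100% of 200 genes changed by 1.5 on the log2 scale, among 17552 genes, were recovered past 1.5-fold. No variation between pools was simulated and the planted change was well past the limit, so this checks the arithmetic only. TMM factors came from edgeR 4.0.16 in R 4.3.3, ratios and intervals from scipy 1.17.1 with pandas 2.3.3 and numpy 2.4.6, and figures from matplotlib 3.10.9 in Python 3.11.15. Other scalings, a pseudocount of 1, lower minimum counts and 200 or 1000 genes of like length were the alternatives.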

Additional observations from a re-analysis of the deposited data

Results flagged for a closer look

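The percent of clean reads mapped to genes was 64.3% in control replicate 3, and the nearest of the other control libraries was at 74.4%. This gap was 0.588 of the range of the group, above Dixon's critical value for 7 samples. About 1 in 20 groups would show such a gap by chance, and groups were examined in this way for clean reads, mapping rate and share of the group sum. The library is part of the control sum of every hepatokine gene, and its part in the differences was not tested.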

How the results depend on the processing

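The direction of each of the 7 genes, and the number past 1.5-fold in each direction (1 and 1), did not change with TMM factors, with the median ratio of genes above 0 in both groups, with totals without the 50 genes of highest count, relative to genes of like length, or with a pseudocount of 1. The median log2 ratio of the 7 genes fell from 0.25 to 0.089 with TMM factors, 0.10 with the median ratio, 0.15 without the 50 highest genes and 0.21 relative to genes of like length. The first 2 of these lower the log2 ratio of every gene by 0.16 and 0.15. At 2-fold, Fgf21 dropped below the limit with TMM factors (1.97-fold) and with the median ratio (1.99-fold), and Fgl1 dropped below it relative to genes of like length (1.97-fold). A minimum of 10 counts or none changed nothing for the 7 genes, which all have more. Of 49 values of single genes under these alternatives and with 200 or 1000 genes of like length, 0 changed sign. Of these 49, 27 moved by more than the mean distance between a log2 ratio and the 2 ends of its counting interval. No paired analysis was possible because genes have 1 summed value per group, and for the same reason no library could be left out in turn. Depth does not limit the 7 genes, each with over 1000 counts per group, but the spread between pools is unknown.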
